A study of Mus musculus with 22 samples.

Results

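The amyloid precursor, secretase, tau and Apoe genes measured here are 9 genes: App and its relatives Aplp1 and Aplp2, the β-secretase gene Bace1, the γ-secretase subunit genes Psen2, Aph1a and Aph1b, the tau gene Mapt, and Apoe. They were taken as every non-control probe whose RefSeq transcript belongs to 1 of these genes, which gave 13 probes of the 55681 on the array, where 28026 probes named 21154 genes in all. App, Aplp1, Aplp2, Bace1, Psen2 and Apoe had 1 probe each, Aph1a and Aph1b had 2, and Mapt had 3. The rule that picks their probes uses no measured value, but the genes themselves were chosen with earlier results of these data known.

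Hippocampal RNA of the right hemisphere was compared between TgproNGF#3 mice and wild-type (WT) mice of the same C57Bl/6xDBA/2 background, with 1 mouse per one-colour array. TgproNGF#3 is a transgenic line from 1 founder that carries a mouse pre-proNGF cDNA mutated at the furin site, followed by an IRES and EGFP, under the Thy1.2 promoter, which drives expression in neurons. WT mice carried no transgene, and no mouse had been treated. The arrays hold 4 TgproNGF#3 and 4 WT males at 1 month, 4 and 4 males at 3 months, and 3 and 3 females at 12 months. Each age had a slide of its own, so age, slide and, for 12 months, sex cannot be told apart. At 1 month, the TgproNGF#3 arrays sat in array columns 3 and 4 and the WT arrays in columns 1 and 2, so genotype and column cannot be told apart there. At 12 months, all 3 TgproNGF#3 arrays shared a row of the slide with WT replicate 3, while WT replicates 1 and 2 lay in the other row.

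App encodes a membrane protein that is cut in 2 ways. Cleavage by an α-secretase of the ADAM family releases a soluble ectodomain, whereas cleavage by BACE1 followed by γ-secretase releases the amyloid-β peptide of Alzheimer's plaques. γ-Secretase is a complex of a presenilin, which holds the active site, nicastrin, an APH1 protein and PEN-2. Tau binds and stabilizes microtubules, mainly in axons, and forms the tangles of Alzheimer's disease when hyperphosphorylated. Apolipoprotein E carries lipids between brain cells and is secreted mostly by astrocytes and, in disease, by microglia.

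A level is given here as the log2 of the background-subtracted Cy3 intensity minus the 75th percentile (log2) of the spots kept on the array, so that 0 is a probe at that percentile. Each probe binds its target with its own strength, so a level is compared only between arrays on the same probe, and where a gene has several probes it is their differences between arrays that are set side by side. All 13 probes were well above background on all 22 arrays, and none of their spots was saturated. Apoe was spotted 10 times on each array, and the SD over the spots of 1 array had a median of 0.0575 and did not pass 0.125 (log2). App was spotted 2 times, with a median spot SD of 0.0304. The other 11 probes had 1 spot, so their technical error within an array is not known.

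The share of spots well above background was 69.76 to 80.27% on the 1-month arrays, 57.6 to 64.7% at 3 months and 60.7 to 67.68% at 12 months. Correlations between any 2 arrays ran from 0.9466 to 0.9952 over 28898 probes, and no 2 arrays were near copies. The neuron, astrocyte, microglia and oligodendrocyte markers used to check the tissue, 10, 12, 12 and 10 genes, had a value on every array.

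**Figure D1:**
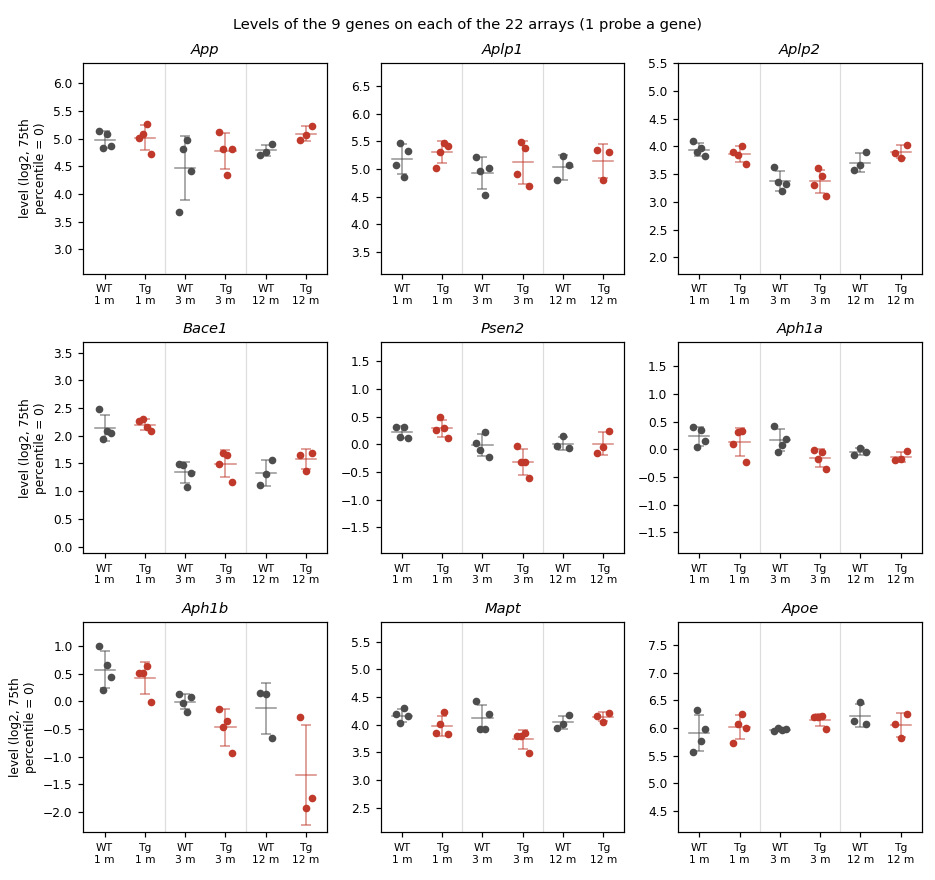
Level (log2, 75th percentile of the array at 0) of 1 probe for each of the 9 genes on each of the 22 arrays. Points are mice (black WT, red TgproNGF#3), lines and bars the group mean and SD, and every panel spans the same number of log2 units. TgproNGF#3 and WT mice overlapped in all panels at 1 month, while Mapt at 3 months and App at 12 months were apart.

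At 1 month, no difference between TgproNGF#3 and WT hippocampus was detected in any of the 9 genes. A probe was called when its unadjusted p was below 0.05 and its Log2 FC (TgproNGF#3 over WT) above 1 or below -1, the thresholds of the study's methods. None of the 13 probes was called, against 0.57% of the 40536 probes tested. None had an unadjusted p below 0.05, against 3.47% of all probes, and none had groups that did not overlap, against 3.32%. With the probe of each gene that has the highest level (its main probe), Log2 FC ran from -0.19 for Mapt to 0.12 for Aplp1, and all 95% intervals lay between -0.65 and 0.56. The median Log2 FC of the 13 probes was -0.05, and that of all probes 0.07. The limma adjusted p (Benjamini-Hochberg over all probes tested) was 1 for every member. Since the RNA comes from whole hippocampus, fewer cells of a type and less RNA per cell cannot be told apart in any of these values.

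**Figure D2:**
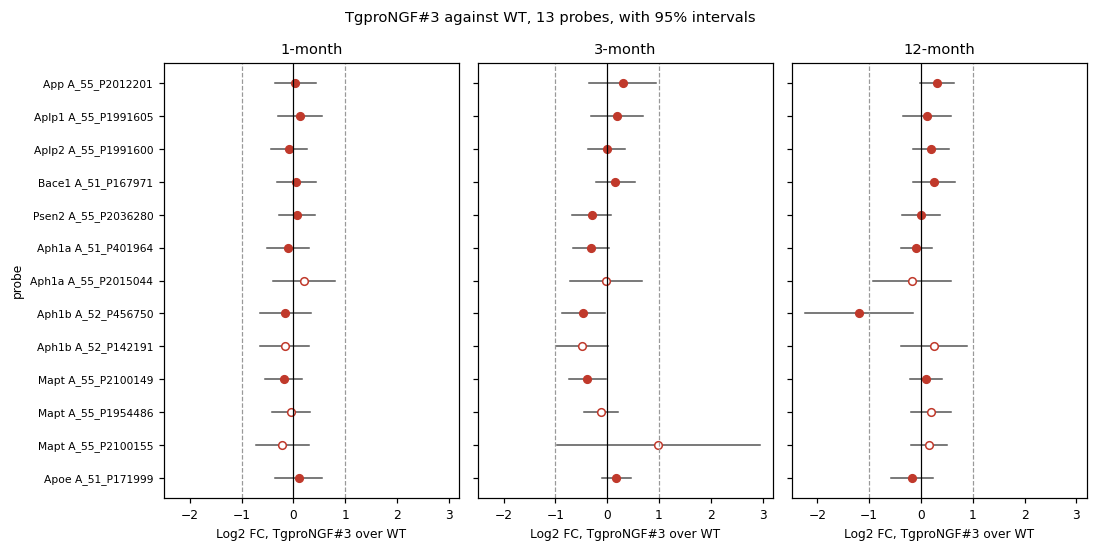
Log2 FC of TgproNGF#3 over WT at 1, 3 and 12 months for the 13 probes, with 95% intervals from the limma fits (filled, the main probe of a gene; open, its other probes). Dashed lines mark a Log2 FC of -1 and 1. At 12 months 1 probe of Aph1b lies beyond -1, at -1.20.

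At 3 months, when 6.76% of all 33593 probes were called, 0 of the 13 member probes were. Mapt and Aph1b had an unadjusted p below 0.05 on their main probes, which is 2 of 13 probes against 27.2% of all probes, and none passed the adjusted threshold. The groups of 1 member probe did not overlap, against 20.3% of all probes. The median Log2 FC was -0.03 over the 13 probes and -0.12 over all probes. By size, the median absolute Log2 FC was 0.30 for the members and 0.274 for all probes.

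Mapt, by probe A_55_P2100149, was lower in all 4 TgproNGF#3 mice of 3 months than in any WT mouse. Its level was 3.80, 3.80, 3.85 and 3.49 in TgproNGF#3 replicates 1 to 4 and 4.42, 3.92, 3.93 and 4.19 in WT. The group means were 3.73 ± 0.166 and 4.11 ± 0.239 (SD, n = 4 and 4). The Log2 FC was -0.38 (SE 0.161, 95% interval -0.74 to -0.02, limma unadjusted p = 0.0409, adjusted p = 0.165). An exact permutation test (two-sided) gave p = 0.0286, the smallest possible with 4 against 4, which became 0.635 after Benjamini-Hochberg adjustment over the 39 tests of 13 probes at 3 ages. Without WT replicate 1, the mouse with the highest level, the Log2 FC was -0.28.

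The other Mapt probes did not repeat this difference. Probe A_55_P1954486 read 3.92, 3.82, 3.97 and 3.58 in TgproNGF#3 and 4.05, 3.87, 3.76 and 4.11 in WT, with a Log2 FC of -0.12 (SE 0.147, 95% interval -0.45 to 0.21), and its groups overlapped. Probe A_55_P2100155, which the array assigns to the same RefSeq transcript as the main probe, read 2.27, 2.40, 1.07 and 2.57 in TgproNGF#3 and -0.80, 2.95, 2.81 and -0.59 in WT. Its Log2 FC was 0.98 (SE 0.873, 95% interval -0.98 to 2.94), so the interval covers values on both sides of 0. The mean of the 3 probes gave a Log2 FC of 0.16 for Mapt, opposite in sign to the main probe.

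The lowest readings of A_55_P2100155 came from 3 mice of 3 months: WT replicates 1 and 4 and, less so, TgproNGF#3 replicate 3. On the 14 arrays of the other ages it read between 2.46 and 3.54, and TgproNGF#3 replicates 1 and 2 of 3 months, at 2.27 and 2.40, lay just below that range. Its range over the 8 arrays of 3 months was 3.74 (log2), and 0.755% of the 29792 probes with a value on all 8 had a wider one. The 3 arrays with the lowest readings lay in array columns 2 and 3 of the slide, where TgproNGF#3 replicate 2 was the fourth, while TgproNGF#3 replicate 1 lay in column 1. App was lowest on WT replicate 1 too, and over these 8 arrays its level correlated with that of A_55_P2100155 (r = 0.858, a description over arrays that share a slide). Another 35 probes followed A_55_P2100155 with r above 0.9 over the same arrays. The part of array position in these readings was not tested.

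**Figure D3:**
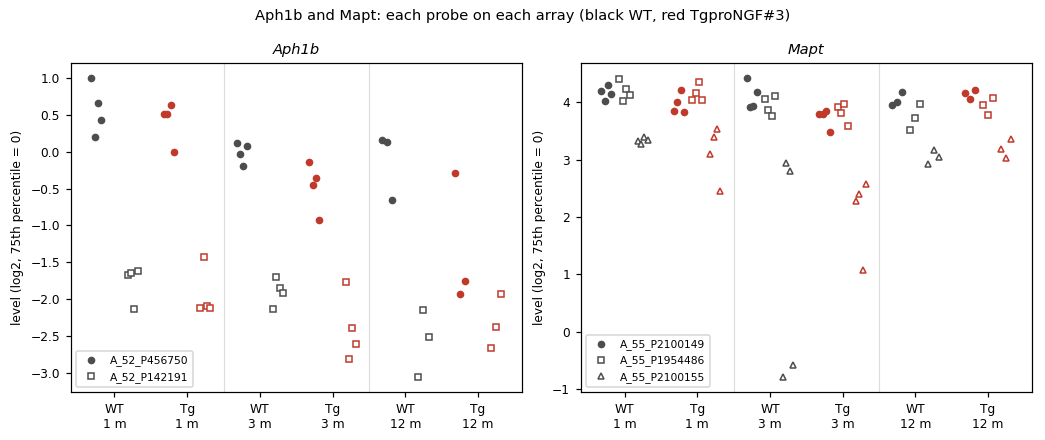
Level (log2, 75th percentile of the array at 0) of the 2 Aph1b probes and the 3 Mapt probes on every array, by group (black WT, red TgproNGF#3). The Mapt probe A_55_P2100155 read -0.80 and -0.59 on 2 WT arrays of 3 months while the other Mapt probes stayed between 3.49 and 4.42, and the 2 Aph1b probes moved differently at 12 months.

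For App itself, the precursor of amyloid-β, no difference was detected at 3 months. Its level was 5.11, 4.82, 4.34 and 4.82 in TgproNGF#3 and 3.67, 4.81, 4.98 and 4.42 in WT. The groups overlapped, with WT replicate 1 below all other mice and TgproNGF#3 replicate 1 above them. The Log2 FC was 0.30 (SE 0.288, 95% interval -0.34 to 0.95, limma adjusted p = 0.531), and 0.04 without WT replicate 1. Aplp1 and Aplp2, paralogues of App without the amyloid-β sequence, had Log2 FCs of 0.19 (SE 0.222) and -0.01 (SE 0.158). Bace1 had a Log2 FC of 0.15 (SE 0.167). Leaving out 1 mouse at a time gave 0.05 to 0.33 for Aplp1, -0.09 to 0.07 for Aplp2 and 0.07 to 0.27 for Bace1.

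The 3 γ-secretase subunits among the members had lower means in TgproNGF#3 mice of 3 months on their main probes, none past the adjusted threshold. Aph1b, whose product stabilizes the complex, read -0.13, -0.46, -0.36 and -0.93 in TgproNGF#3 and 0.12, -0.04, -0.19 and 0.08 in WT on its main probe, A_52_P456750. Replicates 2, 3 and 4 of TgproNGF#3 lay below every WT mouse, and replicate 1 lay within the WT range. The second Aph1b probe went the same way. The Log2 FC was -0.46 (SE 0.183, limma unadjusted p = 0.0314, adjusted p = 0.143) on the main probe and -0.49 (SE 0.224, unadjusted p = 0.054, adjusted p = 0.192) on A_52_P142191. Aph1a had a Log2 FC of -0.31 (SE 0.152, 95% interval -0.65 to 0.03) on its main probe and -0.03 (SE 0.312) on its second probe. Psen2, which encodes a presenilin, had a Log2 FC of -0.30 (SE 0.168, 95% interval -0.68 to 0.08). Psenen and Ncstn, which encode PEN-2 and nicastrin, are not members and were added after their values were seen. Their Log2 FCs were -0.04 (SE 0.251) and -0.44 (SE 0.288). The Ncstn probe had a low level (-6.12 in TgproNGF#3 and -5.68 in WT), and the median over all probes was -0.12.

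Apoe had the narrowest WT spread of the members at 3 months (SD 0.0257). WT mice read 5.94, 5.99, 5.96 and 5.99, and TgproNGF#3 mice 6.20, 6.20, 6.22 and 5.98. The first 3 TgproNGF#3 mice were above every WT mouse, and the fourth lay among them. The Log2 FC was 0.18 (SE 0.122, 95% interval -0.10 to 0.45, limma adjusted p = 0.38), and 0.23 without TgproNGF#3 replicate 4.

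The scaling of the arrays moved these 3-month values. When the percentile was that of every spot, dim ones included, the median Log2 FC of all probes was 0.000355 in place of -0.12. In that setting Mapt had a Log2 FC of -0.25, Aph1b -0.33, App 0.43, Apoe 0.31 and Bace1 0.28, Aplp2 turned from -0.01 to 0.12, and no gene was called. With quantile normalization Apoe had 0.34, Mapt -0.33 and Aph1b -0.49, and again no gene was called. Over all alternatives Psen2 ran from -0.40 to -0.17, the latter with dim spots kept. Aph1a ran from -0.38 to -0.17, the latter with its probes averaged. The summed level of 12 astrocyte markers was 6.68 to 6.86 (log2) in TgproNGF#3 and 6.85 to 7.31 in WT of 3 months. That of 10 neuron markers was 7.14 to 7.51 and 7.25 to 7.72, and that of 10 leptomeningeal markers, cells of the brain's covering that can remain on a dissected hippocampus, 2.57 to 3.46 and 2.12 to 2.68. That of 12 microglia markers was 5.56 to 6.07 and 5.51 to 6.06. The 10 choroid plexus markers summed to 2.67 to 7.11 in TgproNGF#3 and 6.23 to 6.84 in WT of 3 months, and all 10 had a Log2 FC below 0 at each age (medians -0.478, -0.86 and -0.962 at 1, 3 and 12 months), with none called. The part of cell composition in the member values was not tested.

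At 12 months, 1 of the 13 probes was called, against 1.3% of the 34064 probes tested. This was the main probe of Aph1b, also the only member probe with an unadjusted p below 0.05, against 9.05% of all probes. The groups of 1 member probe, that of App, did not overlap, against 15.5% of all probes. The median Log2 FC was 0.11 over the 13 probes and 0.01 over all probes.

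Aph1b read -0.29, -1.93 and -1.75 in TgproNGF#3 and 0.16, 0.13 and -0.65 in WT of 12 months on A_52_P456750. TgproNGF#3 replicates 2 and 3 were the lowest of all 22 arrays, whereas replicate 1 lay above WT replicate 3, so the groups overlapped. The Log2 FC was -1.20 (SE 0.445, 95% interval -2.24 to -0.16), or 0.435-fold, with a limma unadjusted p = 0.0288 and an adjusted p = 0.549. The second Aph1b probe went the other way. It read -2.66, -2.38 and -1.94 in TgproNGF#3 and -3.06, -2.15 and -2.52 in WT, with a Log2 FC of 0.25 (SE 0.276, 95% interval -0.40 to 0.89). Both are assigned to the same RefSeq transcript.

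The Aph1b call depended on single mice. Without TgproNGF#3 replicate 2 or 3, the Log2 FC was -0.90 or -0.99, and without WT replicate 1 or 2 it was -1.06 or -1.08 with an unadjusted limma p of 0.0786 or 0.0695. Without TgproNGF#3 replicate 1, the mouse within the WT range, it was -1.72, and without WT replicate 3 it was -1.47, both called, with adjusted p = 0.197 and 0.207. With the array row as a block it was -0.67, which sets the 3 TgproNGF#3 mice against WT replicate 3 alone, the lowest WT mouse, so the part of the row was not tested. The mean of both probes gave -0.48. Aph1c, a close copy of Aph1b that is its neighbour in the mouse genome, has no probe named through RefSeq here, and whether the Aph1b probes also bind its transcripts was not tested.

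App was higher in all 3 TgproNGF#3 mice of 12 months than in any WT mouse. Its level was 4.98, 5.07 and 5.23 in TgproNGF#3 and 4.71, 4.76 and 4.90 in WT, with means of 5.09 ± 0.129 and 4.79 ± 0.103 (SD, n = 3 and 3). The Log2 FC was 0.30 (SE 0.139, 95% interval -0.02 to 0.63), or 1.23-fold (limma unadjusted p = 0.0631, adjusted p = 0.552). The exact permutation test gave p = 0.1, the smallest it can give with 3 against 3, which became 0.635 after adjustment over the 39 tests. Leaving out 1 mouse at a time gave 0.23 to 0.36. The array row as a block gave 0.19, which leaves WT replicate 3, the highest WT mouse, as the only control. Neuron markers summed to 7.68 to 7.82 (log2) in TgproNGF#3 and 7.45 to 7.71 in WT of 12 months, a shift in the same direction, and 9 of these 10 markers had a Log2 FC above 0. The part of neuron content in the App value was not tested.

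The remaining members had intervals across 0 at 12 months. Aplp1, Aplp2 and Bace1 had Log2 FCs of 0.11 (SE 0.20), 0.20 (SE 0.149) and 0.25 (SE 0.172). With the array row as a block, which leaves WT replicate 3 as the only control, Aplp2 and Bace1 were both at 0.01. Without WT replicate 1, Aplp1 was at -0.01 and Bace1 at 0.13. Psen2 and Aph1a had Log2 FCs of 0.00 (SE 0.157) and -0.09 (SE 0.129). The 3 Mapt probes now went the same way as each other, with Log2 FCs of 0.10 (SE 0.135), 0.20 (SE 0.166) and 0.15 (SE 0.149). The main probe of Mapt was at -0.03 with the array row as a block and at 0.24 with arrays aligned to their median. Apoe read 6.08, 5.83 and 6.26 in TgproNGF#3 and 6.13, 6.46 and 6.08 in WT, a Log2 FC of -0.17 (SE 0.174, 95% interval -0.58 to 0.24). It was -0.05 without WT replicate 2, -0.06 without TgproNGF#3 replicate 2, -0.03 with the array row as a block, -0.06 with quantile normalization and -0.02 with arrays aligned to their median, and -0.27 without TgproNGF#3 replicate 3. Leptomeningeal markers summed to 0.67 to 2.05 (log2) in TgproNGF#3 and 2.10 to 3.00 in WT, and 3 of the 9 tested were called lower. Microglia markers summed to 6.07 to 6.21 and 6.16 to 6.25, with 10 of 12 below 0 (median Log2 FC -0.144) and none called, and astrocyte markers to 7.37 to 7.58 and 7.44 to 7.47, with 7 of 12 below 0. The part of these cells in the Apoe value was not tested.

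Whether the effect of the transgene differed between ages was tested directly. None of the 13 probes passed an adjusted p of 0.05 for any pair of ages, against 1.75% of all probes between 3 and 1 month, 4.01% between 12 and 3 months and 0% between 12 and 1 month, where 2134 of 34019 probes had an unadjusted p below 0.05. The Mapt main probe had the lowest p between 12 and 3 months: its Log2 FC was 0.48 higher at 12 months (SE 0.213, limma unadjusted p = 0.042, adjusted p = 0.228). The other Mapt probes gave 0.32 (SE 0.218) and -0.83 (SE 1.11), and the mean of the 3 gave -0.01. That of the Aph1b main probe was 1.04 lower at 12 than at 1 month, a difference of -1.04 (SE 0.484, unadjusted p = 0.0476, adjusted p = 0.789). The second Aph1b probe gave 0.42 (SE 0.352), and the mean of both -0.31. App, with Log2 FCs of 0.04, 0.30 and 0.30 at 1, 3 and 12 months, had a difference of effects of 0.26 (SE 0.227, 95% interval -0.22 to 0.75) from 1 to 12 months.

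The other genes of these pathways were described through 6 lists with 59 genes, 57 of them with a probe: secretases and their partners, App adaptors and trafficking proteins, amyloid-β-degrading enzymes, Apoe's lipid transporters, regulators and receptors, tau kinases, phosphatases and chaperones, and other microtubule-associated proteins. At 1 month, 0 of 56 tested genes were called higher or lower, against 0.174% and 0.168% of all genes. At 3 months, 3 of 56 (5.36%) were called lower, against 3.35% of all genes, and 0 higher, against 0.775%. At 12 months, 1 of 55 was called higher, against 0.325%, and 0 lower, against 0.854%.

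The 3 genes called lower in TgproNGF#3 mice of 3 months were Ece1, Mark2 and Mark3. Ece1 encodes an endothelin-converting enzyme that also degrades amyloid-β, and its Log2 FC was -1.88 (SE 0.429, limma adjusted p = 0.0343) on a probe of low level (-5.20 in TgproNGF#3 and -3.32 in WT). Mark2 and Mark3 encode kinases that phosphorylate tau and release it from microtubules, and their Log2 FCs were -1.02 (SE 0.301, adjusted p = 0.0674) and -1.41 (SE 0.241, adjusted p = 0.00951). By the adjusted p alone, 4 of 56 genes of the 6 lists passed, against 6.52% of all genes: Ece1, Mark3 and a pair that missed the fold threshold. Map2, a dendritic microtubule-associated protein related to tau, had a Log2 FC of -0.93 (SE 0.141, adjusted p = 0.00611), and Adam17, an α-secretase, of -0.77 (SE 0.17, adjusted p = 0.0269) on a probe of low level (-5.63 in TgproNGF#3 and -4.87 in WT). These 2 were picked after their values were seen. Over the 6 lists at 3 months, 37 of 56 genes had a Log2 FC below 0, with a median of -0.09, beside -0.05 for all genes. The list medians ran from -0.235 for the tau kinases, phosphatases and chaperones (11 of 17 below 0) to 0.048 for the amyloid-β-degrading enzymes. At the other ages more genes of the 6 lists lay above 0, 43 of 56 at 1 month and 34 of 55 at 12 months, and the tau list had 12 and 13 of its 17 genes above 0, with medians of 0.0359 and 0.161. All genes had medians of 0.0724 and 0.0616 at these ages, so that the tau list lay below the median of all genes at 1 month, and the 6 lists together had medians of 0.0826 and 0.106.

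The gene called higher at 12 months was Map1b, a microtubule-associated protein of growing axons. Its Log2 FC was 2.00 (SE 0.681, limma adjusted p = 0.549), from a level of 1.30 in WT to 3.30 in TgproNGF#3. At 3 months the same probe went the other way, with a Log2 FC of -1.35 (SE 0.741), and at 1 month it had -0.15 (SE 0.482). Among secretase partners, 6 of 8 genes had a probe, and none was called at any age.

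**Figure D4:**
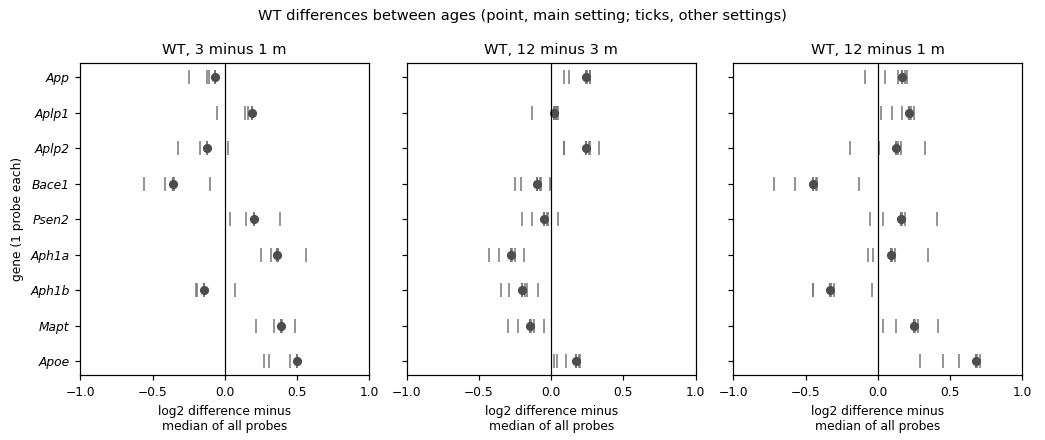
Differences in WT level between ages for the main probe of each gene, minus the median difference of all probes (log2). Points give the main setting and ticks 8 other settings of filter, scaling and background. Bace1 lay below 0 and Apoe above 0 in all 3 panels and all settings.

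In WT mice, 8 of the 9 genes read lower on their main probes at 3 and at 12 months than at 1 month with the scaling used here, but this direction depended on the scaling. With dim spots kept, with the percentile of every spot and in the authors' log2 values, 5 of 9 read higher at 3 months and 7 of 9 at 12 months. Between 1 and 3 months, 12 of 13 member probes had a lower mean, and 5 passed an adjusted p of 0.05, against 43% of all probes. The median difference was -0.252 over the members and -0.438 over all probes. This overall shift depends on the scaling: it was 0.0188 with the percentile of every spot, -0.0319 in the authors' log2 values and -0.666 with arrays aligned to their median. Levels between ages are therefore given relative to the median of all probes as well, and age, slide and sex cannot be told apart in them. This reference depends on the probes taken. Over probes with mean levels above 0 at both ages, the median was -0.314 from 1 to 3 months. From 3 to 12 months it was -0.0112, where all probes had 0.0822, and from 1 to 12 months -0.342, where all had -0.365. Against such probes, relative values would be lower from 1 to 3 months and higher from 3 to 12 months. Between 3 and 12 months 0 of 13 probes passed, against 9.61% of all probes, and between 1 and 12 months 3 of 13, against 27.5%.

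Bace1, the enzyme that starts amyloid-β release, had the lowest value of the 9 genes relative to the median of all probes, from 1 to 3 and from 1 to 12 months, with the scaling used here. With quantile normalization App (-0.11) stood just below Bace1 (-0.10) from 1 to 3 months, and with the probes of each gene averaged so did Mapt (-0.38, beside -0.33 for Bace1). WT mice of 1 month read 2.49, 1.94, 2.09 and 2.05, those of 3 months 1.49, 1.47, 1.08 and 1.33, and those of 12 months 1.10, 1.32 and 1.57. All mice of 1 month were above all older mice, and the 2 older ages overlapped. The difference from 1 month was -0.80 at 3 months (SE 0.169, limma adjusted p = 0.00389) and -0.81 at 12 months (SE 0.182, adjusted p = 0.012). These calls depended on the scaling. With the percentile of every spot the differences were -0.34 (adjusted p = 0.103) and -0.39 (adjusted p = 0.0996), with dim spots kept -0.35 (adjusted p = 0.104) and -0.39 (adjusted p = 0.0933), and in the authors' log2 values -0.39 (adjusted p = 0.0434) and -0.40 (adjusted p = 0.0713). Without WT replicate 1 of 12 months the second was -0.70 (adjusted p = 0.0609). With all mice and the scaling used here, the differences relative to the median of all probes were -0.36 and -0.45, and over 9 settings -0.56 to -0.10 and -0.72 to -0.13. TgproNGF#3 mice of 1 month read 2.26, 2.31, 2.15 and 2.08, those of 3 months 1.48, 1.70, 1.65 and 1.16, and those of 12 months 1.66, 1.37 and 1.70, so that here too all mice of 1 month were above the older ones.

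With the same scaling Apoe had the highest value of the 9 genes in these relative differences, but not with quantile normalization. There Aph1a (0.56), Mapt (0.49) and Psen2 (0.38) stood above Apoe (0.27) from 1 to 3 months, and Mapt (0.42), Psen2 (0.41), Aph1a (0.35) and Aplp2 (0.33) above Apoe (0.29) from 1 to 12 months. WT mice read 5.57, 6.32, 5.77 and 5.98 at 1 month, 5.94 to 5.99 at 3 months, and 6.13, 6.46 and 6.08 at 12 months. The 12-month mice were above the 3-month mice, while those of 1 month overlapped both. The difference between 12 and 1 month was 0.31 (SE 0.183, limma adjusted p = 0.195), and 0.68 relative to the median of all probes, with 0.29 to 0.71 over 9 settings. Without that reference the sign of the Apoe difference from 1 to 12 months depended on the scaling, from -0.32 with quantile normalization to 0.74 with dim spots kept. Astrocyte markers summed to 6.99 to 7.22 (log2) in WT of 1 month, 6.85 to 7.31 at 3 months and 7.44 to 7.47 at 12 months.

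Aplp2 passed the adjusted threshold between 1 and 3 months, but unlike that of Bace1 its value did not keep its side of the median of all probes in every setting. Its WT means were 3.94 ± 0.118, 3.38 ± 0.183 and 3.71 ± 0.171 (SD, n = 4, 4 and 3), with a difference of -0.56 (SE 0.146, limma adjusted p = 0.0101) from 1 to 3 months, or -0.12 relative to all probes, with -0.32 to 0.02 over 9 settings. Over all alternatives the unreferenced Aplp2 difference ran from -0.79 to -0.11, with a limma adjusted p of 0.00444 to 0.605. The Aph1b main probe had means of 0.57 ± 0.341, -0.01 ± 0.139 and -0.12 ± 0.461, and differed by -0.58 (adjusted p = 0.0433) from 1 to 3 months and by -0.70 (adjusted p = 0.0413) from 1 to 12 months. Relative to all probes these were -0.14 (-0.20 to 0.07 over 9 settings) and -0.33 (-0.45 to -0.04). Over all alternatives the unreferenced differences of the Aph1b main probe ran from -0.81 to -0.12 and from -1.03 to -0.27. The limma adjusted p ran from 0.0184 to 0.718 and from 0.00752 to 0.453. The second Aph1b probe differed by -0.81 (adjusted p = 0.021) from 1 to 12 months, but by -0.14 (adjusted p = 0.592) from 1 to 3 months, which relative to all probes were -0.44 and 0.30. The other probes past the adjusted threshold from 1 to 3 months were the second Aph1a probe, by -0.96 (adjusted p = 0.0276; -0.52 relative to all probes), and the Mapt probe A_55_P2100155, by -2.24 (adjusted p = 0.0242; -1.80 relative to all probes), which rests on the 2 low WT arrays described above.

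On their main probes and with the scaling used here, App, Aplp1, Psen2, Aph1a and Mapt passed the adjusted threshold in no comparison of WT ages. Under other settings some did. From 1 to 3 months App passed with arrays aligned to their median (-0.74, limma adjusted p = 0.0293), with quantile normalization (-0.72, adjusted p = 0.0451) and without WT replicate 3 of 3 months (-0.68, adjusted p = 0.0394), and Aph1a (-0.51, adjusted p = 0.0154) and Mapt (-0.85, adjusted p = 0.00792) passed with the probes of a gene averaged. The Aph1a mean took in its second probe (-0.96), whose level was low (-3.50 and -4.46 in WT of 1 and 3 months), beside -0.07 on the main probe. The Mapt mean took in A_55_P2100155 (-2.24) with its 2 low WT arrays, beside -0.05 and -0.25 on the other probes. From 1 to 12 months Aph1a passed with arrays aligned to their median (-0.61, adjusted p = 0.0433). App means were 4.98 ± 0.158, 4.47 ± 0.582 and 4.79 ± 0.103 at 1, 3 and 12 months, with the widest spread at 3 months through replicate 1. Mapt means were 4.16 ± 0.111, 4.11 ± 0.239 and 4.04 ± 0.118, and neighbouring ages overlapped. Relative to all probes, the Mapt main probe stood at 0.39 from 1 to 3 months and 0.25 from 1 to 12 months, above 0 in all 9 settings, but the other Mapt probes were not all above 0 with the scaling used here. Probe A_55_P1954486 stood at 0.19 and -0.09, its unreferenced difference from 1 to 12 months being -0.46 with the groups apart (limma adjusted p = 0.0555). The mean of the 3 Mapt probes stood at -0.38 from 1 to 3 months and 0.13 from 1 to 12 months. Relative to all probes, App stood at -0.07 from 1 to 3 months and 0.17 from 1 to 12 months, Aplp1 at 0.19 and 0.22, Psen2 at 0.20 and 0.16, and Aph1a at 0.36 and 0.09. Over the 9 settings Aplp1 changed side from 1 to 3 months (-0.05 to 0.19). From 1 to 12 months App (-0.09 to 0.20), Psen2 (-0.05 to 0.41) and Aph1a (-0.07 to 0.35) did so, and the others of these values kept their side. Aplp1 means were 5.18 ± 0.267, 4.93 ± 0.29 and 5.04 ± 0.226, Psen2 means 0.22 ± 0.109, -0.02 ± 0.198 and 0.01 ± 0.117, and Aph1a means 0.24 ± 0.166, 0.16 ± 0.199 and -0.04 ± 0.066.

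Over the 22 arrays, the genes whose levels most resembled those of App by Pearson's r, among 14527 genes with a value on every array, were Pdxdc1 (r = 0.87), Ube2s (0.858) and Rraga (0.856). Mapt was closest to Mturn (0.9), Bcr (0.884) and Stim1 (0.871), and Apoe to the predicted genes Gm8709 (0.773) and Gm5523 (0.756) and to Sncb (0.746). These values describe arrays that share slides and scaling. With group means removed, Aplp2 and Bace1 varied together among the members (r = 0.827), as did Aph1a and Mapt (0.804), while App and Aplp1 had r = -0.477.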

How the data were processed

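Total RNA (RIN of at least 8) was labelled with Cy3 and hybridized, 1 mouse per array. The authors deposited spot intensity values from Agilent Feature Extraction 10.7.3.1, background-subtracted and detrended within each array but not scaled between arrays. They also deposited log2 values aligned to the 75th percentile, which served as an alternative. The number of arrays, not read depth, limits the precision.

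Controls, outliers and dim spots (not well above background) were removed, each log2 intensity was set against the array's 75th percentile, and spots of a probe were averaged. Symbols came from RefSeq accessions. Probes measured on 2 or more arrays of every group were fitted with limma 3.58.1 (R 4.3.3; lmFit, eBayes, two-sided), per age for genotype, over the 11 WT arrays for age, and over 4 groups for the difference of effects. P-values were adjusted over all probes (Benjamini-Hochberg). Exact permutation tests used scipy 1.17.1. The labels do not say whether mice share litters.

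All probes of the 9 genes were named. The main probe is the one with the highest mean level among those with a value on the most arrays. Pathway genes were named where called, and so were Map2, Adam17, Psenen and Ncstn. The 3 genes most like App, Mapt and Apoe by Pearson's r were named too. Members and lists were chosen with earlier results of these data known. The procedure was tested on simulated data. The results of some genes are not reported here.

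At 1 month, same-numbered arrays deviated together (r = 0.511, 0.272, 0.191 and 0.208 over 36103 probes). For TgproNGF#3 replicates 1 to 3 the same-numbered WT array had the highest r, but not for replicate 4. The labels give only a replicate number, and same-numbered arrays of 1 month also shared a row of the slide. The part of array position in these correlations was not tested. Alternatives changed the spot filter, scaling, background correction (normexp with offset 50, on the median signals that the files hold), probe choice, thresholds and blocks, or left out 1 mouse.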

Additional observations from a re-analysis of the deposited data

Results flagged for a closer look

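In 4 of the 52 groups of 4 mice (13 probes, 4 groups), 1 mouse stood far from the other 3 by Dixon's test at 95% (the gap to its nearest neighbour over the range of the group). Chance gives about 1 in 20 groups. The Aph1b probe A_52_P142191 did so in both groups of 1 month: TgproNGF#3 replicate 2 was high at -1.42 (gap 0.944 of the range) and WT replicate 3 low at -2.13 (0.874). At 3 months, TgproNGF#3 replicate 4 was low for the Mapt probe A_55_P2100149, at 3.49 (0.869), and for Apoe, at 5.98 (0.892). That array had the smallest share of spots well above background of all, 57.6%. Without it, the 3-month Log2 FC was -0.30 for Mapt and 0.23 for Apoe.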

How the results depend on the processing

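The counts of member genes called at 1 and 3 months (0 and 0) held under every alternative run. The 1 gene called at 12 months, Aph1b, was lost (0 called) with the probes of a gene averaged, with the array row as a block and with an adjusted p in place of the fold threshold, and leaving out 1 mouse gave 0 to 1. In WT, the 3 genes past the adjusted p between 1 and 3 months by main probe became 0 with dim spots kept, 0 with the percentile over all spots and 1 with the authors' log2 values, and 2 to 3 without 1 mouse. Added genes were App with median or quantile scaling (4 in all each), Aph1a and Mapt with probes averaged (4, without Aph1b), and App without WT replicate 3 of 3 months. The 2 between 1 and 12 months became 1 (Apoe, higher) with dim spots kept or the percentile over all spots, 0 with the authors' log2 values, 1 (Bace1) with all 22 arrays in 1 fit, 3 with median scaling (Aph1a added), and 0 to 2 without 1 mouse; it was 0 without WT replicate 1 of 12 months and 1 without WT replicate 1, 3 or 4 of 1 month, 2 or 4 of 3 months, or 3 of 12 months. The cause was not tested.

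With the replicate number as a block, 0, 0 and 1 member genes were called at 1, 3 and 12 months, as without it. Same-numbered arrays did not deviate together at 3 months (r from -0.356 to -0.0234) or 12 months (-0.316 to 0.0503). Of 351 genotype values under alternatives other than a left-out mouse, 348 kept their side of the threshold, and 18 uncalled ones changed sign. With 3 or 4 mice per group and 1 probe spot for most genes, 95% intervals of the main probes reached at least 0.273 (log2) to either side, so smaller differences in single genes were not detectable.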
